A study of Mus musculus with 31 samples.

Results

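The data described here are the interaction of genotype and imipramine (IMN), a tricyclic antidepressant, in the caudate putamen (CPu) of mice labelled female. For each gene it is the effect of IMN in *Brd1*+/- mice, which carry 1 functional *Brd1* allele, minus the effect of IMN in WT mice. All 31 mice of the series entered a single fit of 4 groups, and the contrast was (*Brd1*+/- IMN − *Brd1*+/- vehicle) − (WT IMN − WT vehicle). It was taken over every gene that passed a filter on low values, 25394 of the 52636 listed, with no choice of genes by their values. A positive interaction means that IMN minus vehicle was larger in *Brd1*+/- than in WT mice, and a negative interaction that it was smaller. The groups were WT vehicle (n = 8), *Brd1*+/- vehicle (n = 7), WT IMN (n = 8) and *Brd1*+/- IMN (n = 8), all labelled female, 8 to 11 weeks old and of the C57BL/6NTac-Brd1 strain. In *Brd1*+/- mice a targeted deletion removes part of *Brd1* on a single allele throughout the animal. Vehicle was saline, and IMN was administered at 10 mg/kg. Both were given by subcutaneous injection on each of the days of behavioral testing, and brains were taken after a forced swim, so all 4 groups carry the handling, injection and swim stress, and no untested or untreated group is included. WT mice were litter-matched, each library came from the punched tissue of 1 mouse, and the values are TPM, which correct for gene length and add up to nearly the same total in each mouse.

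BRD1 is a scaffold protein that brings histone acetyltransferases of the MYST family, among them HBO1 (KAT7), to chromatin, where it reads acetylated histones through its bromodomain. IMN blocks the uptake of noradrenaline and serotonin and binds muscarinic, histamine and adrenergic receptors, so its first actions are at synapses and receptors, and gene expression follows through second messengers. The CPu is the dorsal striatum, built mostly of GABAergic medium spiny neurons that express dopamine receptors and DARPP-32, and it lies directly beneath the corpus callosum and cortex. An interaction of genotype and drug asks whether the response to the drug depends on the genotype, which neither the effect of the drug in WT mice nor that in *Brd1*+/- mice answers alone.

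*Brd1* itself was lower in *Brd1*+/- mice under either treatment. The lowest, median and highest TPM were 18.3, 23 and 26.9 in WT vehicle mice, 11.1, 13.1 and 16 in *Brd1*+/- vehicle mice, 14.6, 21 and 22.5 in WT IMN mice and 11.3, 12.9 and 13.8 in *Brd1*+/- IMN mice. Its interaction was 0.11 ± 0.13 (SE, p = 0.386, exact p = 0.392) on the log2(TPM + 1) scale, within the spread between mice, and it was −0.02 with the mice scaled by median-of-ratios. Libraries that stand apart concern the group this contrast leans on most. A score of 12 genes of cortical excitatory neurons (mean log2(TPM + 1)) lay between 4.13 and 5.43 in WT vehicle mice 1, 2, 3, 4, 5 and 7, and between 1.39 and 2.96 in *Brd1*+/- vehicle mice. WT vehicle mice 6 and 8 were at 1.10 and 1.16. Scores above 3.5 occurred also in 2 WT IMN mice and in no *Brd1*+/- mouse. The summed TPM of these cortical genes ran from 33.4 to 1917 in WT vehicle mice and from 40.1 to 254 in *Brd1*+/- vehicle mice, and none of the 12 was at 0 throughout a group. A score of 16 genes of medium spiny neurons was 5.63, 3.35, 7.96, 7.14, 6.62 and 7.40 in WT vehicle mice 1, 2, 3, 4, 5 and 7. WT vehicle mice 6 and 8 were at 8.42 and 8.47, and *Brd1*+/- vehicle mice at 8.29 to 8.44. Below all *Brd1*+/- vehicle mice were 6 of 8 WT vehicle, 3 of 8 WT IMN and 5 of 8 *Brd1*+/- IMN mice. The defining striatal markers were present in every group. In tissue punches, more cells of a type and more RNA per cell cannot be told apart. WT vehicle mouse 7, labelled female, had a summed TPM of 26.8 over 4 Y-linked genes, where every other mouse was at 0.188 or less. A sum of that size goes against the label, which was kept. Without that mouse 723 genes had an interaction at p under 0.01, against 951 with it.

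**Figure D1:**
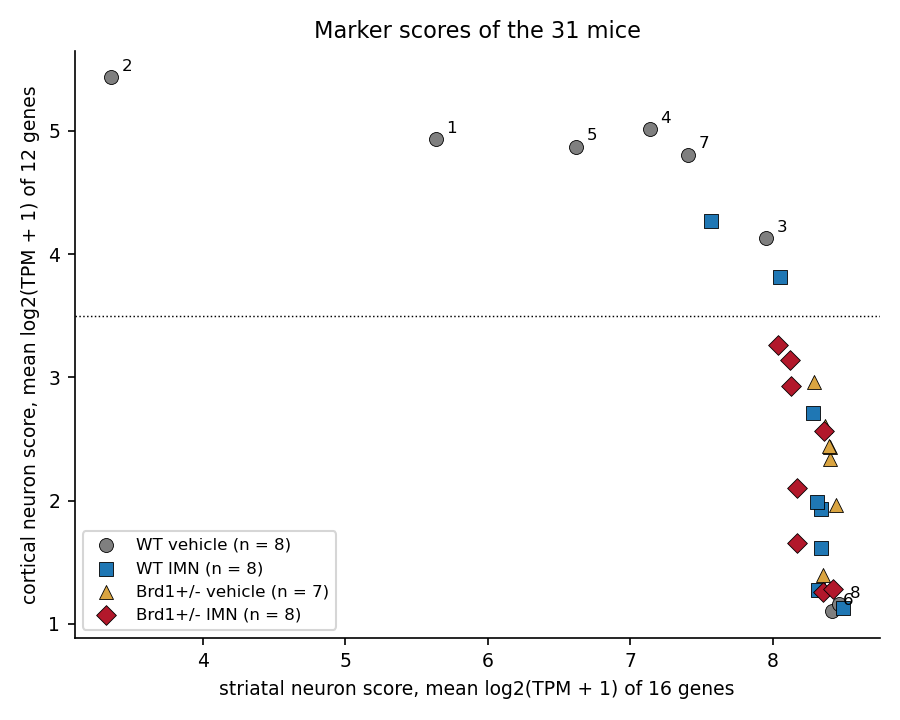
Each point is a mouse, placed by its score of striatal neuron genes (horizontal) and of cortical excitatory neuron genes (vertical), both mean log2(TPM + 1). WT vehicle mice carry their number. Of the WT vehicle mice, 6 lie above the dotted line at 3.5 with 2 WT IMN mice, and the other 23 mice lie below it.

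Across the genes tested, 951 differed in their response to IMN between the genotypes at a nominal p under 0.01, which is 3.74% of the genes tested (limma). Of these, 753 had a positive interaction (2.97% of all genes tested) and 198 a negative interaction (0.78%). No gene passed a Benjamini-Hochberg FDR of 5%, and the smallest FDR was 0.261, while 4119 genes were under an unadjusted p of 0.05. With sample quality weights, which give less weight to libraries far from their group, 2624 genes passed that FDR. The lowest weights went to WT vehicle mice 2 (0.308), 8 (0.344), 6 (0.419) and 1 (0.516), of which 6 and 8 are the pair low in cortical score. All single-gene statements below therefore rest on nominal p values. The median interaction over all genes was 0.09 and 67.2% of genes were positive, so that the excess of positive calls sits on a shift of the whole distribution. With median-of-ratios scaling the median was 0.01 and the calls split evenly, 405 positive and 400 negative, and with quantile normalization 370 were positive and 490 negative. The balance of directions is therefore not given as a property of the genes, and of the genes named here *Brd1* alone turned in direction under a scaling.

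For most of the 951 genes the interaction arose from the WT vehicle mice. In 784 of them (82.4%) the WT vehicle group was the group farthest from the mean of the other 3, as it was for 53.4% of all genes tested. *Brd1*+/- vehicle mice stood apart for 107 genes, WT IMN mice for 33 and *Brd1*+/- IMN mice for 27 (11.3%, 3.47% and 2.84%, against 20.4%, 11.8% and 14.3% of all genes tested). Of the 951 genes, 26 passed the filter on low values only through the group in which they were highest, 18 of them through WT vehicle mice. Of all 25394 genes tested, 1479 passed only in that way. The 26 genes remain in the counts given here. IMN minus vehicle differed nominally for 13.5% of all genes tested in WT mice and for 1.17% in *Brd1*+/- mice. Among the positive interactions, 575 genes had a nominal effect of IMN in WT mice only, 32 in *Brd1*+/- mice only, 2 in both and 144 in neither. The negative interactions divided in the same order into 116, 22, 2 and 58 genes. In either direction, then, the common form was a difference between IMN and vehicle in WT mice with no nominal difference in *Brd1*+/- mice. The fit gives each gene a common spread for the 4 groups, while the groups spread unequally. For the striatal score the SD was 1.71 in WT vehicle, 0.288 in WT IMN, 0.0485 in *Brd1*+/- vehicle and 0.138 in *Brd1*+/- IMN mice. For genes that vary most in WT vehicle mice, the nominal p of IMN in *Brd1*+/- mice is therefore set in part by WT mice. From the side of genotype, 683 of the positive and 142 of the negative genes had a nominal difference between *Brd1*+/- and WT mice under vehicle only, and 9 and 16 under IMN only, against a background of 19.7% of all genes tested for genotype in vehicle mice and 0.512% in IMN mice. These counts come from the same fit and mice as the interaction and describe its shape.

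**Figure D2:**
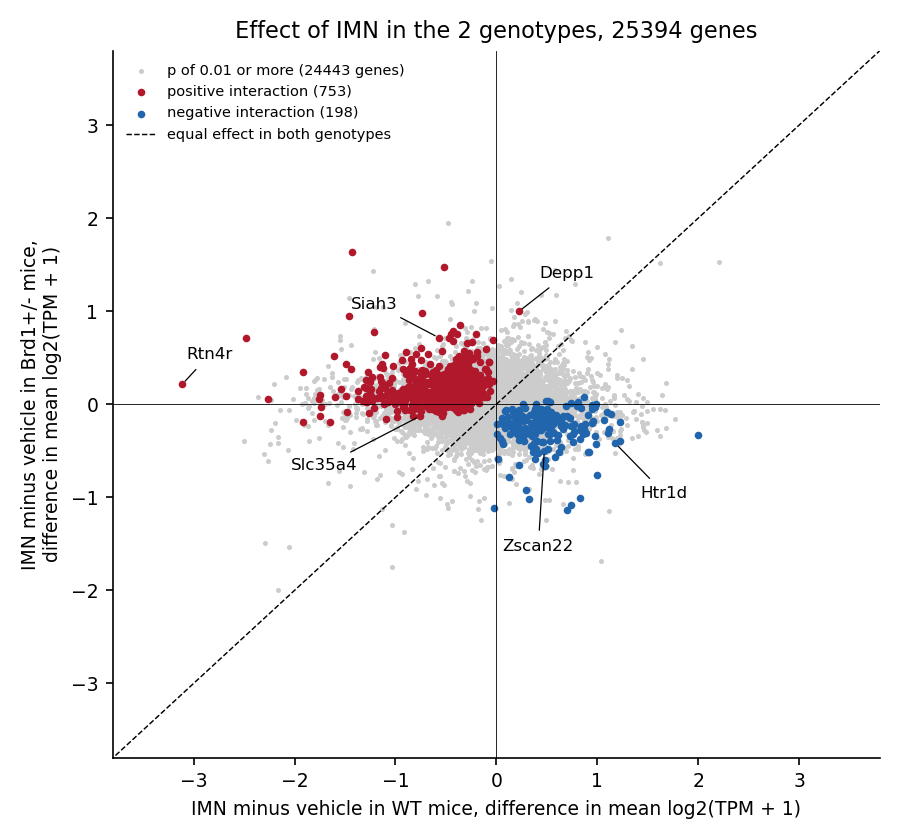
Each point is a gene, placed by IMN minus vehicle in WT mice (horizontal) and in *Brd1*+/- mice (vertical), both as differences in mean log2(TPM + 1). Red and blue mark the 753 positive and 198 negative interactions at p under 0.01, which spread along the horizontal axis more than along the vertical axis, and the dashed line marks equal effects.

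IMN had nominal effects in both genotypes for 4 of the 951 genes, and in all 4 the effects were opposite. *Zscan22*, which encodes a zinc finger protein with a SCAN domain (chr7:12897815-12909083, plus strand, GRCm38), had the smallest p of all genes. Its lowest, median and highest TPM were 6.1, 7.94 and 9.93 in WT vehicle mice and 7.77, 12 and 14.9 in WT IMN mice, and 7.55, 11 and 15.1 in *Brd1*+/- vehicle mice and 6.16, 7.18 and 9.13 in *Brd1*+/- IMN mice. WT vehicle and *Brd1*+/- IMN mice were thus low and the other 2 groups high, with ranges that overlapped in part. IMN minus vehicle was 0.48 in WT mice and −0.50 in *Brd1*+/- mice, and the interaction was −0.97 ± 0.19 (SE, p = 1.38e-05, exact p = 3.02e-05, FDR 0.261). The first p of each pair given here is limma's nominal p, and the second comes from the two-sided exact permutation of treatment labels within each genotype. *Zscan22* was also the only gene to pass an FDR of 5% after median-of-ratios scaling (FDR 0.0421) or quantile normalization (FDR 0.0329), and its interaction ran from −1.05 to −0.90 when each mouse was left out in turn. The interaction was −0.93 with the striatal score as covariate and −1.06 ± 0.25 (SE) without the 8 mice with a cortical score above 3.5.

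*Siah3*, a relative of the SIAH ubiquitin ligases (chr14:75455982-75529708, plus strand), crossed in the other direction. Lowest, median and highest TPM were 0.65, 3.22 and 4.09 in WT vehicle, 0.957, 1.25 and 2.27 in WT IMN, 0, 0.809 and 1.26 in *Brd1*+/- vehicle and 1.36, 1.65 and 2.93 in *Brd1*+/- IMN mice. Every *Brd1*+/- IMN mouse lay above every *Brd1*+/- vehicle mouse, and 6 of the 8 WT vehicle mice lay above all but 1 of the WT IMN mice. The interaction was 1.29 ± 0.28 (SE, p = 7.62e-05, exact p = 0.000125). It was 1.12 ± 0.30 (SE) with the striatal score as covariate, but 0.38 ± 0.28 (SE) without the mice high in cortical score, where the 2 WT vehicle mice that remain, 6 and 8, were at 0.650 and 1.08 TPM. The other 2 crossing genes are long noncoding RNAs. *Gm17586* had an interaction of 0.80 ± 0.17 (SE, p = 4.5e-05, exact p = 2.88e-05), with lowest, median and highest TPM of 5.02, 6.63 and 7.63 in WT vehicle and 2.86, 3.56 and 4.99 in *Brd1*+/- vehicle mice, 2 groups that did not overlap. *Gm20939* had an interaction of −0.55 ± 0.13 (SE, p = 0.000277, exact p = 4.31e-05) at a level near 1 TPM.

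The sequences upstream of *Zscan22* and *Siah3* are shown because these coding genes respond in opposite directions in the 2 genotypes, and that of *Depp1*, described next, because its response lies in *Brd1*+/- IMN mice. Each is the 250 bases before the RefSeq start of the gene (GRCm38.p6, plus strand, 5′ to 3′), at chr7:12897559-12897808, chr14:75455732-75455981 and chr6:116650434-116650683. The window of *Depp1* runs past the gene start given in the next paragraph, so its last bases lie within the gene by that position. Capitals mark the CRE core TGACG, the site bound by CREB, which acts downstream of cyclic AMP.
Zscan22: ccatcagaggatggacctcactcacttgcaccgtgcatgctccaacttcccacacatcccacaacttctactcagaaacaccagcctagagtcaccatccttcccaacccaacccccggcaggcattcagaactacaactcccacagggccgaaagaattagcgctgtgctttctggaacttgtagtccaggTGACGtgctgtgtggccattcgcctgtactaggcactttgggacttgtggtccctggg
Siah3: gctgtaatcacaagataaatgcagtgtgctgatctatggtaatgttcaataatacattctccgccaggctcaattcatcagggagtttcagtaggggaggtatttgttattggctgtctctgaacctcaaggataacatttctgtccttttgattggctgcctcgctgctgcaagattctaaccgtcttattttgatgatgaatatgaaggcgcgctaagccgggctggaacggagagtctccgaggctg
Depp1: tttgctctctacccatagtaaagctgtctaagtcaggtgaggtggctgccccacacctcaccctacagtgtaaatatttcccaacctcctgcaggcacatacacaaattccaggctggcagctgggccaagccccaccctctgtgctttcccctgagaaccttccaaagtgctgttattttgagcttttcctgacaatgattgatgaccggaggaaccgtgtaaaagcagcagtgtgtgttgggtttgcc
On either strand, the window of *Zscan22* held the core once, and those of *Siah3* and *Depp1* did not hold it. Among the 16883 promoter windows of tested genes, 24.1% held TGACG and 2.30% the full CRE, TGACGTCA, which contains the core. The core was in 26.8% of the 678 windows of genes with a positive and 19.8% of the 172 windows of genes with a negative interaction. The FOXO site GTAAACA was in 2.28% of the windows of tested genes and in none of the 3 shown. A match describes letters and not binding.

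*Depp1* and *Slc35a4* show how differently an interaction can be built. *Depp1* encodes a regulator of autophagy that FOXO transcription factors induce, and it lies at chr6:116650609-116652794, plus strand, with *Rassf4* overlapping on the other strand. The lowest, median and highest TPM were 0.711, 1.13 and 1.87 in WT vehicle, 1.09, 1.71 and 1.92 in WT IMN, 0.399, 0.962 and 1.18 in *Brd1*+/- vehicle and 1.56, 2.51 and 3.8 in *Brd1*+/- IMN mice. All *Brd1*+/- IMN mice were above all *Brd1*+/- vehicle mice, and 7 of 8 were above every WT mouse. IMN minus vehicle was 0.998 in *Brd1*+/- mice and 0.22 in WT mice, for an interaction of 0.77 ± 0.19 (SE, p = 0.000319, exact p = 0.0161). The interaction of *Depp1* was 0.89 ± 0.21 (SE) with the striatal score as covariate and 0.72 ± 0.25 (SE) without the mice high in cortical score.

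*Slc35a4*, of the family of nucleotide sugar transporters, overlaps *Apbb3* on the other strand. Its lowest, median and highest TPM were 34.5, 37 and 44 in WT vehicle and 20.5, 21.1 and 25.5 in WT IMN mice, which did not overlap. In *Brd1*+/- mice the values were 19.4, 27.1 and 36.2 under vehicle and 18.2, 24.9 and 37.2 under IMN, ranges that overlapped almost fully. Here the difference between IMN and vehicle was −0.75 in WT and −0.13 in *Brd1*+/- mice, and the interaction was 0.63 ± 0.16 (SE, p = 0.000598, exact p = 0.0134). WT vehicle mice 6 and 8, low in cortical score, were at 34.5 and 34.7 TPM, and the interaction was 0.53 ± 0.25 (SE) without the mice high in that score.

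**Figure D3:**
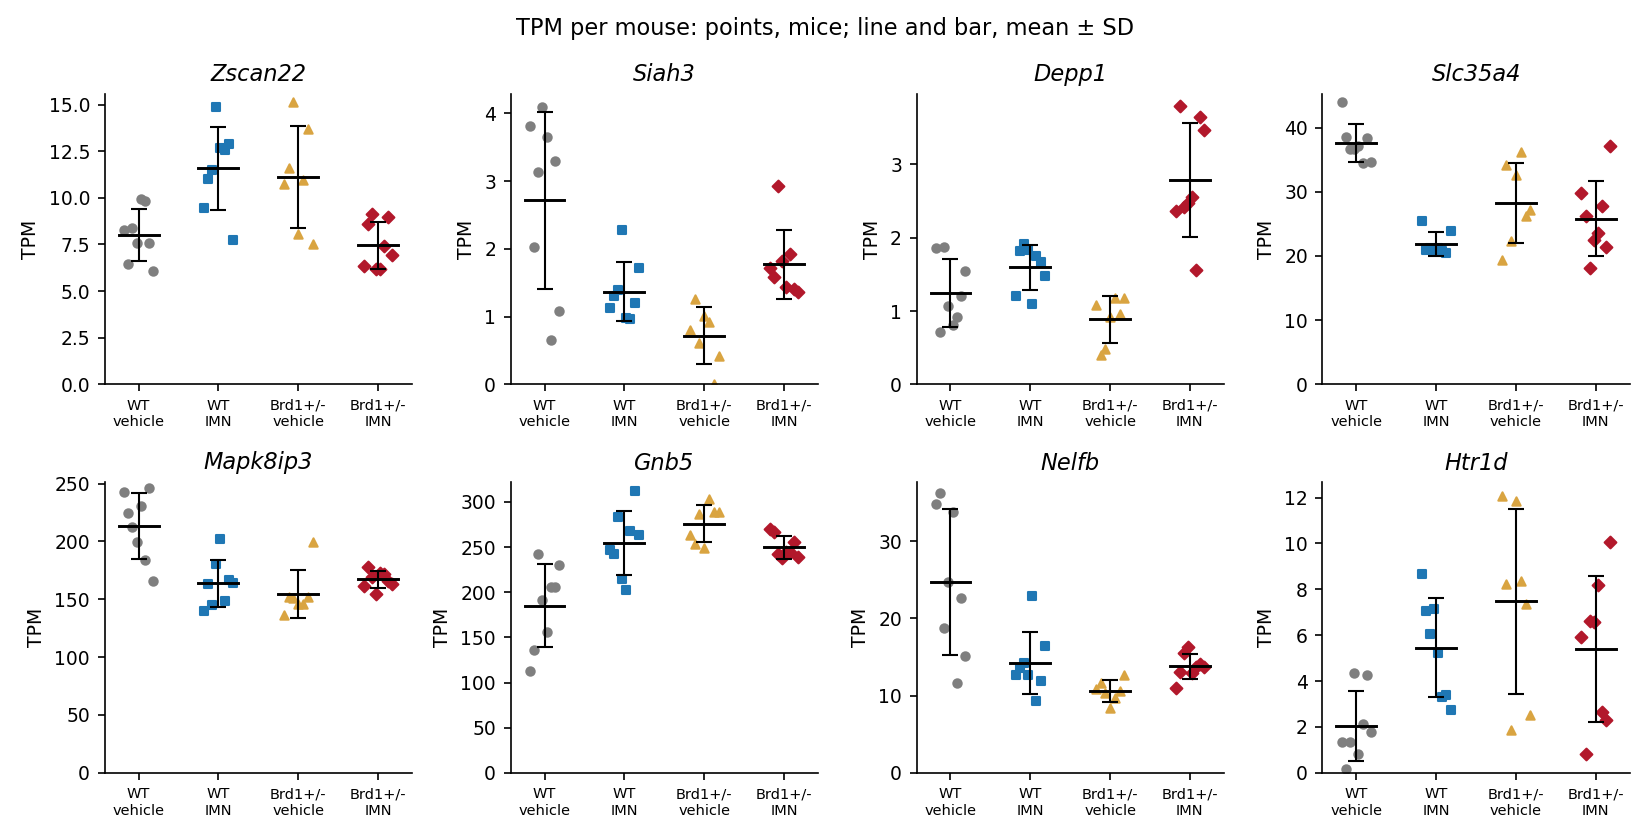
TPM of 8 genes (vertical axes, from 0) in WT vehicle, WT IMN, *Brd1*+/- vehicle and *Brd1*+/- IMN mice, with a point per mouse, the mean as a line and the SD as a bar. *Zscan22* is low in WT vehicle and *Brd1*+/- IMN mice, *Depp1* is high in *Brd1*+/- IMN mice, and in *Slc35a4*, *Mapk8ip3* and *Nelfb* the WT vehicle mice are the highest group.

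Of the remaining genes with the smallest p for a positive interaction, each had WT vehicle mice as the highest group. *Mapk8ip3* encodes JIP3, a scaffold that joins JNK kinases to axonal transport. Its lowest, median and highest TPM were 166, 218 and 246 in WT vehicle, 140.2, 164 and 202 in WT IMN, 137, 151 and 199 in *Brd1*+/- vehicle and 154, 168 and 178 in *Brd1*+/- IMN mice, and the interaction was 0.49 ± 0.12 (SE, p = 0.000195, exact p = 0.000406). *Nelfb*, a subunit of the complex that holds RNA polymerase II paused near promoters, had 11.6, 23.7 and 36.3 TPM in WT vehicle and 8.4, 10.6 and 12.7 in *Brd1*+/- vehicle mice, and 9.34, 13.1 and 22.9 and 11, 13.7 and 16.3 in the corresponding IMN groups. Only 1 WT vehicle mouse fell within the *Brd1*+/- vehicle range, and the interaction was 1.06 ± 0.25 (SE, p = 0.000224, exact p = 0.000272). *Shd*, an adaptor protein with an SH2 domain, had an interaction of 1.33 ± 0.32 (SE, p = 0.00025, exact p = 0.000184), with WT vehicle mice at 8.53, 18.1 and 47.4 TPM and *Brd1*+/- vehicle mice at 5.24, 7.14 and 10.7. WT vehicle mice 6 and 8, low in cortical score, were the lowest 2 of their group for *Mapk8ip3* (184 and 166 TPM), *Nelfb* (11.6 and 15.1 TPM) and *Shd* (9.57 and 8.53 TPM). Without the mice high in that score the interaction was 0.27 ± 0.13 (SE) for *Mapk8ip3*, 0.45 ± 0.18 (SE) for *Nelfb* and 0.59 ± 0.27 (SE) for *Shd*.

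*Mindy3*, a deubiquitinase, and *Glmn*, an inhibitor of cullin-RING ubiquitin ligases, were also among these genes. *Mindy3* had 27.9, 32.8 and 48.4 TPM in WT vehicle and 20.5, 25.2 and 32.5 in *Brd1*+/- vehicle mice, with an interaction of 0.56 ± 0.14 (SE, p = 0.000471, exact p = 0.000544). *Glmn* had 9.29, 10.8 and 13.9 TPM in WT vehicle mice, above all *Brd1*+/- vehicle mice at 5.83, 7.64 and 8.69, and an interaction of 0.61 ± 0.16 (SE, p = 0.000545, exact p = 0.000626). For *Glmn* the estimate was the same to within its error with the striatal score as covariate (0.59 ± 0.17, SE) and without the mice high in cortical score (0.59 ± 0.21, SE). *Fgfr1op*, a centrosomal protein, had an interaction of 0.58 ± 0.15 (SE, p = 0.000475, exact p = 0.00041), with WT vehicle mice at 4.1, 7.2 and 9.29 TPM and WT IMN mice at 3.56, 4.53 and 4.98. *Trpm2*, a calcium-permeable channel opened by ADP-ribose during oxidative stress, had an interaction of 0.90 ± 0.23 (SE, p = 0.000482, exact p = 0.000706), with 12.9, 18.1 and 29.5 TPM in WT vehicle and 7.65, 10.9 and 16.8 in WT IMN mice. Without the mice high in cortical score *Mindy3*, *Fgfr1op* and *Trpm2* were at 0.39 ± 0.16, 0.24 ± 0.14 and 0.65 ± 0.27 (SE). In *Brd1*+/- mice the IMN minus vehicle differences of these 4 genes were small, from 0.07 for *Fgfr1op* to 0.24 for *Trpm2*.

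Among protein-coding genes with a mean of at least 1 TPM, the 5 with the largest positive interactions each reached their highest TPM in a WT vehicle mouse. *Rtn4r*, the Nogo receptor, was listed at 0 in WT vehicle mice 6 and 8, and at 19.4 to 75.7 TPM in the other 6, while 22 of the 23 mice of the other groups were at 3.84 TPM or less. *Rtn4r* passed the filter on low values only through the WT vehicle group, and its interaction of 3.33 describes the 6 WT vehicle mice that are also high in cortical score and is given with no test. *Myl4*, a myosin light chain, followed the same 6 mice, with 13.8 to 78.8 TPM there and 1.45 and 1.19 TPM in WT vehicle mice 6 and 8 (interaction 3.20 ± 1.04, SE, p = 0.00462, exact p = 0.00841). Outside that group *Myl4* reached 32.9 TPM in WT IMN mouse 5, which is also high in cortical score. *St8sia5*, a sialyltransferase of ganglioside synthesis, had 5.13, 46.9 and 79.7 TPM in WT vehicle and 4.44, 7.27 and 10.1 in *Brd1*+/- vehicle mice, and its interaction of 1.84 ± 0.66 (SE, p = 0.00939, exact p = 0.0177) became 0.07 ± 0.36 (SE) without the mice high in cortical score, 2 of which, WT IMN mice 5 and 8, were at 30.6 and 25.9 TPM. *A2ml1*, a protease inhibitor of the macroglobulin family, had an interaction of 2.27 ± 0.81 (SE, p = 0.00869, exact p = 0.0146). Leaving out a mouse removed the call in 18 of 31 fits for *A2ml1* and in 23 of 31 for *St8sia5*. *Gm21586*, a predicted gene, was listed at 0 in 6 of 7 *Brd1*+/- vehicle mice and between 4.57 and 6.81 TPM in 6 of 8 *Brd1*+/- IMN mice. In WT mice it ran the other way, with 7 of 8 vehicle mice at 4.75 to 13.5 TPM and 4 of 8 IMN mice listed at 0, for an interaction of 3.08 ± 0.88 (SE, p = 0.00155, exact p = 0.00306) that was 1.53 ± 1.17 (SE) without the mice high in cortical score.

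Of the 198 negative interactions, WT vehicle mice stood apart for 126 and *Brd1*+/- vehicle mice for 39 (19.7%, against 20.4% of all genes tested). *Gnb5* encodes the G protein beta subunit that pairs with RGS proteins to shorten receptor signals in striatal neurons. Its lowest, median and highest TPM were 112, 199 and 242 in WT vehicle, 203, 255 and 312 in WT IMN, 249, 287 and 303 in *Brd1*+/- vehicle and 238, 244 and 270.1 in *Brd1*+/- IMN mice, so that the vehicle groups did not overlap. The interaction was −0.63 ± 0.16 (SE, p = 0.000572, exact p = 0.000164), −0.34 ± 0.13 (SE) with the striatal score as covariate and −0.39 ± 0.12 (SE) without the mice high in cortical score. *Cacna1c*, the pore of the L-type calcium channel Cav1.2, had 14, 20.3 and 29.4 TPM in WT vehicle and 27.3, 29.3 and 34.1 in *Brd1*+/- vehicle mice, and 21.8, 25.9 and 31.6 and 16.4, 24.3 and 28.5 in the corresponding IMN groups. IMN minus vehicle was 0.34 in WT and −0.32 in *Brd1*+/- mice, with an interaction of −0.65 ± 0.17 (SE, p = 0.000796, exact p = 0.000486). For *Cacna1c* it was −0.36 ± 0.14 (SE) with the striatal score as covariate and −0.24 ± 0.18 (SE) without the mice high in cortical score.

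*P2ry13*, an ADP receptor of microglia, differed little in level but evenly. Its lowest, median and highest TPM were 7.42, 8.14 and 10.7 in *Brd1*+/- vehicle and 6.23, 6.86 and 7.43 in *Brd1*+/- IMN mice, which overlapped only at their edges, and 4.18, 7.34 and 7.85 and 6.92, 7.87 and 9.39 in the WT groups. The interaction was −0.50 ± 0.14 (SE, p = 0.000796, exact p = 2.96e-05). None of the 12 microglial marker genes passed p under 0.01, all were negative, and their median interaction was −0.26. After median-of-ratios scaling 4 of the 12 passed, with a median of −0.38. *Ephx1*, the microsomal epoxide hydrolase, had 13.4, 22.3 and 35.8 TPM in WT vehicle and 30.6, 39.7 and 42.8 in *Brd1*+/- vehicle mice (interaction −0.74 ± 0.19, SE, p = 0.000552, exact p = 0.000417). For *Ephx1*, WT vehicle mice 6 and 8, low in cortical score, were the highest of their group, at 35.8 and 33.5 TPM. *Ror1*, a Wnt5a receptor, had an interaction of −1.16 ± 0.33 (SE, p = 0.00132, exact p = 0.00124) that was −0.33 ± 0.30 (SE) without the mice high in cortical score. Both genes were lowest in WT vehicle mice.

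*S100a3*, *Serpinf1* and *Npl* were highest in WT IMN or *Brd1*+/- vehicle mice. *S100a3*, a calcium-binding protein, had 0.256, 0.534 and 2.7 TPM in WT vehicle, 0.807, 1.56 and 3.59 in WT IMN, 1.11, 1.99 and 2.38 in *Brd1*+/- vehicle and 0.644, 0.8 and 1.18 in *Brd1*+/- IMN mice. Its interaction of −1.15 ± 0.29 (SE, p = 0.000431, exact p = 0.000601) was made of differences of 0.58 in WT and −0.57 in *Brd1*+/- mice. WT vehicle mice 6 and 8, low in cortical score, were the highest of their group for *S100a3*, at 2.23 and 2.70 TPM. *Serpinf1*, which encodes the secreted factor PEDF, had an interaction of −0.78 ± 0.22 (SE, p = 0.00144, exact p = 0.00194), and *Npl*, an enzyme of sialic acid breakdown, of −0.57 ± 0.16 (SE, p = 0.00146, exact p = 0.000862). *Arl5c*, a small GTPase of the ARF-like family, had 0.718, 2.36 and 3.71 TPM in WT vehicle and 3.02, 4.99 and 6.9 in WT IMN mice, and an interaction of −0.996 ± 0.25 (SE, p = 0.000438, exact p = 0.00167). IMN minus vehicle for *Arl5c* was 0.94 in WT and −0.05 in *Brd1*+/- mice.

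Among the largest negative interactions was a target of serotonin itself. *Htr1d*, a serotonin receptor coupled to inhibitory G proteins, had a lowest, median and highest TPM of 0.164, 1.56 and 4.36 in WT vehicle, 2.74, 5.64 and 8.67 in WT IMN, 1.88, 8.22 and 12.1 in *Brd1*+/- vehicle and 0.834, 6.25 and 10.1 in *Brd1*+/- IMN mice. WT vehicle mice were low as a group, and the spread in the other 3 groups was wide. The interaction was −1.60 ± 0.52 (SE, p = 0.00473, exact p = 0.0086), and WT vehicle mice 6 and 8, the pair low in cortical score, were at 2.12 and 1.76 TPM, so that the estimate was −1.59 ± 0.70 (SE) without the mice high in that score. *Car15*, a membrane-anchored carbonic anhydrase, was highest in WT IMN mice at 0, 3.02 and 5.33 TPM and had an interaction of −1.43 ± 0.43 (SE, p = 0.0024, exact p = 0.0037), which was −2.17 ± 0.46 (SE) without those mice. *Gm1604a*, a predicted gene, had an interaction of −2.33 ± 0.75 (SE, p = 0.00432, exact p = 0.00816). *Myo3b*, an unconventional myosin, and *Stk32a*, a serine/threonine kinase, had interactions of −1.42 and −1.42, which were −0.34 ± 0.30 (SE) and −0.23 ± 0.20 (SE) with the striatal score as covariate. Leaving out a mouse removed the call in 21 of 31 fits for *Myo3b*, in 23 for *Stk32a* and in 2 for *Htr1d*.

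The 32 genes chosen by p, size or opposite effects were compared with the marker scores as a group. *Rtn4r*, which passed the filter on low values only through WT vehicle mice, is counted among them, and its part in these counts is not a test. All 32 kept their direction when the striatal score entered the fit, and 18 of them stayed at p under 0.01. Without WT vehicle mouse 7, 30 of the 32 did. Over all genes, the same covariate left 128 genes at p under 0.01 (74 positive and 54 negative), of which 80 were among the original 951, and the WT vehicle group stood apart for 47 of the 128. With the cortical score as covariate 218 genes passed. Without the 8 mice with a cortical score above 3.5, which leaves 2 WT vehicle mice, 145 genes passed, 41 of them among the original 951. In that smaller fit 5 of the 32 genes stayed at p under 0.01 (*Depp1*, *Glmn*, *Zscan22*, *Gnb5* and *Car15*). *Rtn4r* did not pass the filter on low values there and was not fitted. The 12 cortical genes themselves had a median interaction of 1.87 and the 16 striatal genes of −1.55, with all members of each list in the direction of its median and none at p under 0.01. Both scores thus moved with the interaction, and their part in it was not tested.

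**Figure D4:**
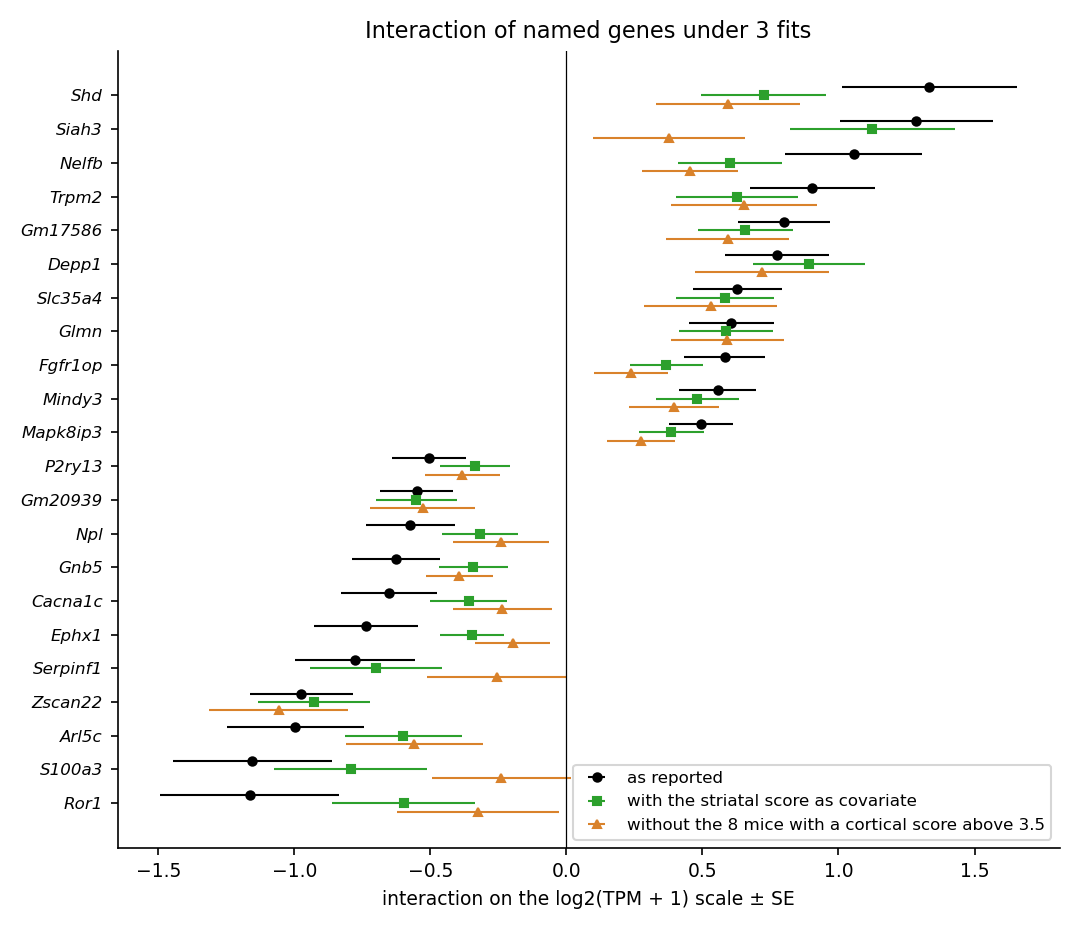
Interaction (horizontal, log2(TPM + 1) scale, bars are SE) of the 22 genes chosen by smallest p or opposite effects in the reported fit (black circles), with the striatal score as covariate (green squares) and without the 8 mice with a cortical score above 3.5 (orange triangles). *Zscan22*, *Depp1*, *Glmn* and *Gm20939* lie at similar values in all 3 fits, while *Ephx1*, *S100a3* and *Ror1* lie closer to 0 in the last.

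Gene groups were then followed through 31 lists. Together they held 821 tested genes, of which 54 (6.58%) had an interaction at p under 0.01, 36 positive and 18 negative, and WT vehicle mice stood apart for 49 of the 54. Over all genes the share was 3.74%, against which the counts of each list below are set. After median-of-ratios scaling 36 of the 54 stayed at p under 0.01, with the striatal score as covariate 2 did, and without the mice high in cortical score 2 did, while 7 turned in direction. Of the 31 lists, 11 held no gene at p under 0.01.

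Targets of IMN and related receptors were among the lists with the larger shares, 5 of 31 tested genes (16.1%), against 3.74% over all genes, with a median of −0.04. Serotonin receptors made up most of the called genes. *Htr1b*, which like *Htr1d* couples to inhibitory G proteins, had 3.5, 25.3 and 52.5 TPM in WT vehicle, 28.4, 46 and 60.9 in WT IMN, 43, 46.4 and 56.7 in *Brd1*+/- vehicle and 30.5, 39.5 and 53.9 in *Brd1*+/- IMN mice (interaction −1.38 ± 0.46, SE, p = 0.00542, exact p = 0.00176), and its interaction was −0.27 ± 0.20 (SE) without the mice high in cortical score. *Htr1a*, the receptor expressed in cortical and raphe neurons, went the other way with 0.292, 4.46 and 6.29 TPM in WT vehicle and 0.476, 0.71 and 0.887 in *Brd1*+/- vehicle mice (interaction 1.23 ± 0.42, SE, p = 0.0064, exact p = 0.0128), and it was −0.02 without the mice high in cortical score. The muscarinic receptor *Chrm4* (−0.80) and the adrenergic receptor *Adra1d* (1.73) completed the list, at −0.11 and −0.21 without the mice high in cortical score. None of these 5 passed p under 0.01 with the striatal score as covariate.

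Signal transduction beneath these receptors held calls in either direction. Of 28 G protein subunit genes 3 passed (10.7%, against 3.74% of all genes), *Gnas* and *Gng3* positive and *Gnb5* negative, with a list median of 0.29. *Gnas*, the stimulatory alpha subunit, had 254, 597 and 869 TPM in WT vehicle and 134, 202 and 392 in *Brd1*+/- vehicle mice, and 165, 276 and 578 and 167, 315 and 494 in the corresponding IMN groups (interaction 1.42 ± 0.40, SE, p = 0.00139, exact p = 0.0026). *Gng3*, a neuronal gamma subunit, had an interaction of 0.83. Of 17 RGS genes, which speed the shutdown of G proteins, 2 passed (11.8%). *Rgs19* was positive (0.67) and *Rgs2* negative (−0.89, p = 0.00724, exact p = 0.00641). *Rgs2* was highest in *Brd1*+/- vehicle mice, at 92.4, 103 and 124 TPM, and at 62, 67.1 and 101 in *Brd1*+/- IMN mice. In the cyclic AMP pathway 2 of 44 genes passed (4.55%), the cyclase *Adcy2* (1.08, and −0.04 without the mice high in cortical score) and the striatal phosphodiesterase *Pde7b* (−1.19), with a median of 0.11. In the Gq and protein kinase C pathway 3 of 39 passed (7.69%), all negative, among them the kinase *Prkd1* (−0.47) and the exchange factor *Rasgrp2* (−1.20). No gene of these 4 lists stayed at p under 0.01 with the striatal score as covariate.

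Ion channels held the largest share of any list, 11 of 58 genes (19.0%, against 3.74% of all genes), 5 positive and 6 negative, with a median of 0.11. After median-of-ratios scaling 8 passed, and the median was −0.03. Partners of the A-type potassium channel fell on either side. *Kcnip4* (0.71), *Kcnip3* (0.70) and *Kcnip1* (1.10) were positive, and *Kcnip2* (−0.91) and the channel subunit *Kcnd2* (−0.60) negative. The inward rectifier *Kcnj2* had 6.8, 12 and 24.8 TPM in WT vehicle and 18.7, 21.6 and 25.3 in *Brd1*+/- vehicle mice (interaction −0.84 ± 0.26, SE, p = 0.0033, exact p = 0.00325). *Kcnj9*, a channel opened by G proteins, was positive (1.12), while the calcium channel subunit *Cacna2d3* (−0.88) and the potassium channel subunit *Kcnab1* (−0.92) were negative like *Cacna1c*. Without the mice high in cortical score the direction turned for *Kcnj9* (−0.08), *Kcnab1* (0.06) and *Kcnip2* (0.04). None of the 58 channel genes passed with the striatal score as covariate.

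Of 30 regulators of actin 4 passed (13.3%, against 3.74% of all genes), all positive, with a list median of 0.18 that was 0.04 after median-of-ratios scaling. *Limk1*, the kinase that inactivates cofilin, had 12.1, 39.8 and 64.9 TPM in WT vehicle, 10.3, 11.9 and 37.6 in WT IMN, 10.2, 12.7 and 14.2 in *Brd1*+/- vehicle and 12, 15 and 20.03 in *Brd1*+/- IMN mice (interaction 1.36 ± 0.40, SE, p = 0.00214, exact p = 0.00476), and its interaction was 0.30 ± 0.17 (SE) without the mice high in cortical score. *Pak1*, which activates LIM kinases, had an interaction of 1.32 (p = 0.0071, exact p = 0.0106) and was at −0.13 without the mice high in cortical score. *Arpc4* and *Arpc3*, subunits of the Arp2/3 complex that nucleates actin branches, had interactions of 0.51 and 0.34, and 0.42 and 0.20 without those mice. *Arpc4* and *Arpc3* did not pass after median-of-ratios scaling, and none of the 4 did with the striatal score as covariate.

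Lists of genes that respond to activity, stress hormones, insulin or growth factors had 1 or 2 called genes each, against 3.74% of all genes. Of 25 immediate early genes, 1 passed (4%), *Ier2* (1.16, p = 0.00136, exact p = 0.00631), with 2.79, 6.72 and 19.1 TPM in WT vehicle and 1.7, 2.15 and 3.92 in WT IMN mice, and the list median was 0.07. Of 25 glucocorticoid-responsive genes, 1 passed (4%), *Zbtb16*, a transcription factor that glucocorticoids induce. Its lowest, median and highest TPM were 2.66, 14.5 and 32.5 in WT vehicle, 2.94, 8.26 and 21.5 in WT IMN, 1.88, 6.14 and 7.46 in *Brd1*+/- vehicle and 6.11, 10.7 and 18.2 in *Brd1*+/- IMN mice, and its interaction was 1.71 ± 0.54 (SE, p = 0.00344, exact p = 0.00451). Other genes of that list, named after their values were seen, did not pass, among them *Sgk1* (0.49, p = 0.158, exact p = 0.258), *Ddit4* (0.40, p = 0.0895, exact p = 0.259) and *Fkbp5* (−0.21, p = 0.164, exact p = 0.209). Of 20 FOXO and insulin genes, *Depp1* and *Gadd45a* (1.39) passed (10%), and *Depp1* alone did so with the striatal score as covariate. *Foxo1* was at −1.07 (p = 0.0137, exact p = 0.0144). Of 25 neurotrophic genes, *Ret*, the receptor of GDNF-family ligands, was positive at low level (0.41), and the growth factor *Igf2* negative (−0.64, p = 0.00694, exact p = 0.0117), the latter also with the striatal score as covariate (−0.69 ± 0.25, SE).

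In lists of protein folding, lipid and lysosomal genes 8 genes passed, all positive, as are 753 of the 951 called genes. Of 26 genes of the unfolded protein response (7.69% called), *Atf4* (0.57) and its target *Chac1* (0.68, p = 0.00227, exact p = 0.002) passed. Of 25 heat shock genes (8% called), *Dnaja1* (0.42) and *Hspa1a* (0.79) passed, and of 35 cholesterol and lipid genes (2.86% called) *Insig1* (0.74), which holds the sterol sensor in the endoplasmic reticulum. Of 36 lysosomal and sphingolipid genes 3 passed (8.33%). They were *Smpd1*, the acid sphingomyelinase that cationic drugs such as IMN are known to inhibit, with 38, 59 and 76.7 TPM in WT vehicle and 37.7, 40.6 and 43.6 in *Brd1*+/- vehicle mice (interaction 0.45 ± 0.15, SE, p = 0.00487, exact p = 0.00521), *Ppt1* (0.32) and *Neu1* (0.48). For *Smpd1* the value was 0.01 ± 0.09 (SE) without the mice high in cortical score. After median-of-ratios scaling *Atf4*, *Dnaja1*, *Hspa1a*, *Ppt1* and *Neu1* no longer passed, no heat shock gene did, the lysosomal list again held 3 called genes, *Smpd1* and other members, and the medians of the unfolded protein and heat shock lists turned from 0.07 and 0.08 to −0.07 and −0.06.

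None of the 12 genes of the BRD1 acetyltransferase complexes passed p under 0.01, with a median of 0.10 that was −0.03 after median-of-ratios scaling, and the smallest p belonged to *Kat6b* (0.34, p = 0.0386, exact p = 0.0562). Of 18 deacetylase and sirtuin genes (11.1% called), *Hdac10* (0.94 ± 0.25, SE, p = 0.000622, exact p = 0.000535) and *Hdac7* (1.03 ± 0.35, SE, p = 0.00661, exact p = 0.00832) passed. *Hdac10* had 4.96, 8.05 and 15.1 TPM in WT vehicle and 3.35, 4.25 and 4.49 in *Brd1*+/- vehicle mice, which did not overlap, and 4.12, 5.3 and 8.12 and 3.86, 5.76 and 7.92 in the corresponding IMN groups. Without the mice high in cortical score the interaction was 0.36 ± 0.20 (SE) for *Hdac10* and 0.06 ± 0.28 (SE) for *Hdac7*, and neither passed there or with the striatal score as covariate. Of 21 clock genes *Cry1*, a repressor of the clock, was negative (−0.50).

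Of 82 ribosomal protein genes, *Rps15a* (0.76) and *Rps28* (0.41) passed (2.44%), and the list median of 0.19 was 0.05 after median-of-ratios scaling. Over all genes 3.74% passed. Of 84 nuclear genes of oxidative phosphorylation 4 passed (4.76%), *Ndufb6* (0.39), *Atp5f1* (0.37) and *Ndufs5* (0.35) positive and *Cox7b2* (−0.86) negative at under 1 TPM in most mice, with a median of 0.20 against 0.06 after that scaling, which left 1 gene of each list at p under 0.01. None of the 13 genes of the mitochondrial genome passed, all were negative, and their median was −0.26, which was −0.40 after median-of-ratios scaling and −0.03 after quantile normalization. Markers of interneurons (median −0.45), astrocytes (0.13), oligodendrocytes (0.57), endothelial and mural cells (−0.09), ependyma (0.11) and red blood cells (0.35) held no gene at p under 0.01.

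Finally, 26 of the 951 genes (2.73%), 18 positive and 8 negative, were at p under 0.01 with the same direction in all 13 fits that kept every mouse, namely the reported fit and the 12 others that varied pseudocount, filter, scaling, moderation, weights, block or marker scores. All 13 fits use the same mice, so passing them all is no independent support. The fit without the mice high in cortical score, where 41 of the 951 genes passed, is not among them. The 26 genes include 17 protein-coding genes. WT vehicle mice stood apart for 16 of the 26, and *Brd1*+/- vehicle, WT IMN and *Brd1*+/- IMN mice for 2, 4 and 4. Beside those described above they include *Atg10* (0.47), an enzyme of autophagosome formation with 4.81, 6.61 and 7.92 TPM in *Brd1*+/- vehicle and 7.04, 7.68 and 8.73 in *Brd1*+/- IMN mice, *Sidt2* (0.76), a lysosomal membrane protein, and *Usp49* (1.22), a deubiquitinase. *Gigyf2* (0.63), a translational repressor, and *Plekhj1* (−0.60), whose call was lost in 5 of 31 fits without a mouse, were also among them. Small noncoding RNAs were *Snord22* (1.99), *Gm25658* (−1.76) and *Mir6976* (−1.84), the last 2 lower in *Brd1*+/- IMN than in *Brd1*+/- vehicle mice in median (1.91 against 4.05 and 0.974 against 3.55 TPM), and *Snord22* lies within *Snhg1* on the same strand, and may share its reads.

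**Figure D5:**
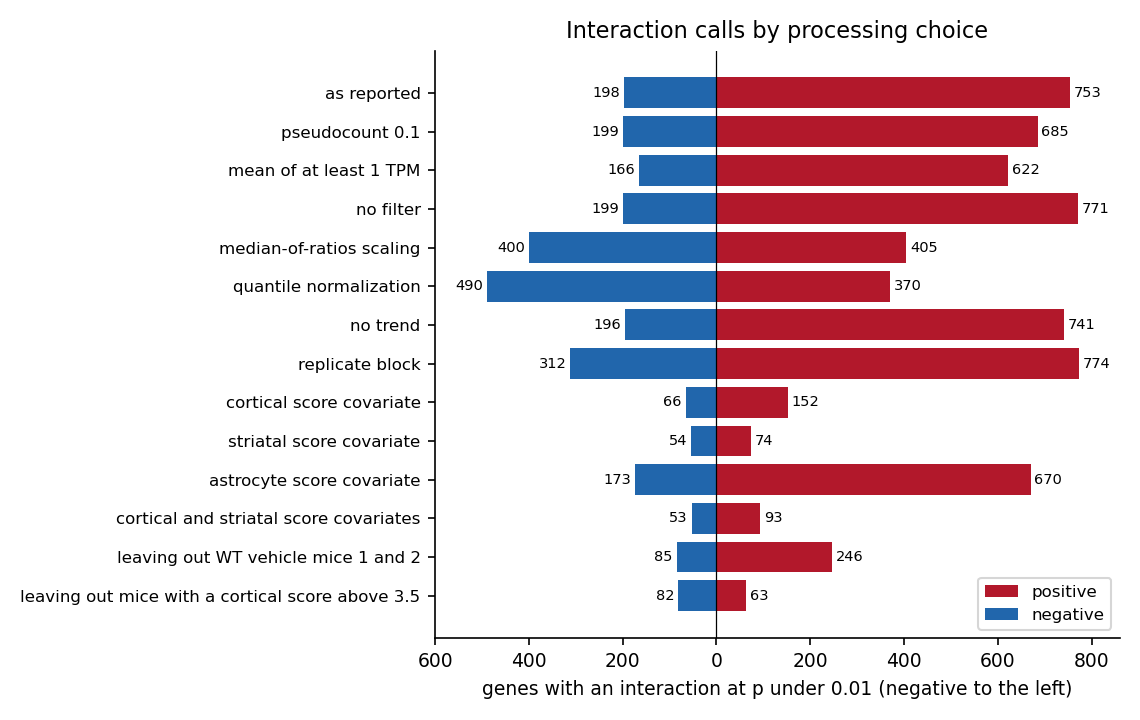
Number of genes with a positive (red, right) or negative (blue, left) interaction at p under 0.01 in each fit. The reported fit has 753 and 198, scaling between mice evens the 2 directions, and fits that take up the cortical or striatal score, or leave out all mice with a cortical score above 3.5, have 218 genes or fewer in all. Sample quality weights, which gave 3458 genes, are not drawn.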

How the data were processed

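RNA from CPu punches of 31 mice was sequenced (BGISEQ-500). Reads were aligned by the authors to GRCm38 with HISAT2 (2.1.0) and quantified with StringTie (1.3.4), and TPM were deposited for 52636 genes, with no further scaling (sums of 999787 to 999918 per mouse). Read depth is unknown from TPM, so precision rests on the spread between mice, each a separate animal. Groups came from the labels, and 0 columns were left unused. From these values log2(TPM + 1) was computed, and genes above 0.1 TPM in at least 7 mice were fitted with limma 3.58.1 (R 4.3.3; empirical Bayes with trend, 4 groups). Thresholds were p under 0.01 and an FDR of 5%. The study's edgeR test needs counts and was not run. Single genes were also tested by an exact two-sided permutation of treatment within genotype, whose null is no effect of IMN in either genotype. The fit was also run on simulated data with an equal spread in the 4 groups, unlike these data, so that run does not vouch for the fit here. Gene positions came from GENCODE M21 and promoters from RefSeq, which held 105 of 136 named genes. Authors' counting is not stated to use strand, so overlapping genes may share reads.

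Named genes were *Brd1*, the 10 with the smallest p and the 5 with the largest interaction in each direction (protein-coding, p under 0.01, mean of at least 1 TPM), up to 10 with opposite IMN effects, up to 3 at an FDR of 5% under median-of-ratios scaling, and up to 3 per list. Genes of a list called at p under 0.01 beyond those 3, the genes called in all 13 fits and *Sgk1*, *Ddit4* and *Fkbp5* were named after their values were seen. Some called genes of the lists are not reported here. The comparison and all lists were chosen with earlier results of these data known. Alternatives were a pseudocount of 0.1, a mean of at least 1 TPM, no filter, median-of-ratios and quantile scaling, no trend, sample weights, a replicate block, marker scores as covariates and each mouse left out.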

Additional observations from a re-analysis of the deposited data

Results flagged for a closer look

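The effect of IMN differed between the genotypes at p under 0.01 for 951 genes, by the interaction term of limma. A sum of 26.8 TPM over 4 Y-linked genes, which no comparison uses, appeared in WT vehicle mouse 7 (labelled female), and the next highest mouse was at 0.188.

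Single mice stood far from the rest of their group in 15 of 160 sets of values examined, and about 1 in 20 would by chance. Among positive genes these were *Siah3* in *Brd1*+/- IMN mouse 3 (2.93 TPM), *Mapk8ip3* in *Brd1*+/- vehicle mouse 7 (199 TPM), *Shd* and *A2ml1* in WT vehicle mouse 2 (47.4 and 46.4 TPM), *Slc35a4* in WT vehicle mouse 1 (44 TPM), *Gm21586* in *Brd1*+/- vehicle mouse 6 (5.75 TPM) and *Rtn4r* in *Brd1*+/- vehicle mouse 4 (3.25 TPM). WT IMN mouse 5, which is among the mice high in cortical score, was far above its group for *Rtn4r* (20.2 TPM) and *Myl4* (32.9 TPM). Among negative genes they were *S100a3* in *Brd1*+/- IMN mouse 8 (1.18 TPM), *Cacna1c* in *Brd1*+/- vehicle mouse 3 (34.1 TPM), *Gm1604a* in *Brd1*+/- vehicle mouse 5 (4.38 TPM) and *Car15* in *Brd1*+/- IMN mouse 5 (3.07 TPM). The astrocyte score of *Brd1*+/- vehicle mouse 2 (5.84) and the ependymal score of *Brd1*+/- vehicle mouse 6 (0.956) were also far from their groups.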

How the results depend on the processing

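The 951 interactions (753 positive, 198 negative, 784 with WT vehicle apart) stayed within 1.5 times under another pseudocount, filter or moderation. With sample quality weights the counts were 3458, 2910, 548 and 3112, with 2624 at an FDR of 5%. Median-of-ratios gave 405 positive, 400 negative and 1 at an FDR of 5%, and quantile normalization 370, 490 and 1. In the order total, positive, negative and WT vehicle apart, the counts were 218, 152, 66 and 131 with the cortical score, 128, 74, 54 and 47 with the striatal score, 146, 93, 53 and 62 with both, 331, 246, 85 and 224 without WT vehicle mice 1 and 2, and 145, 63, 82 and 108 without mice with a cortical score above 3.5. The last pair of alternatives was chosen after seeing the data. Leaving out each mouse gave 546 (without WT vehicle mouse 1) to 2571 (without WT vehicle mouse 8) genes, 421 to 2120 positive, 122 to 465 negative and 416 to 2396 with WT vehicle apart, with 0 at an FDR of 5% in each. Counts moved over 1.5 times also without WT vehicle mouse 2 (605), 5 (590) or 6 (2349), *Brd1*+/- vehicle mouse 1 (633) and WT IMN mouse 5 (1674), positive counts without WT IMN mouse 2 (484), negative counts without WT IMN mouse 7 (122), and those with WT vehicle apart without WT IMN mouse 2 (517) or 7 (520) or *Brd1*+/- IMN mouse 2 (503). The cause was not tested. Replicate numbers did not pair the mice (correlations of deviations from −0.39 to 0.41), and as a replicate block they gave 312 negative and 1086 genes in all. Signs turned for *Brd1* under median-of-ratios (−0.0206), quantile normalization (−0.0429) and without mice high in cortical score (−0.0446), and for *Aldoc* with the striatal score (−0.0169) or both scores (−0.0104). Without mice high in cortical score they turned for *Emx1* (−0.044), *Fezf2* (−0.16), *Rasd2* (0.0245), *Gad1* (0.0216), *Cdkn1a* (−0.35), *Htr1a* (−0.0218), *Adcy2* (−0.0445), *Prkar1b* (−0.10), *Bhlhe40* (−0.13), *Nfil3* (−0.26), *Pak1* (−0.13), *Gabra4* (0.0443), *Fkbp5* (0.30), *Adra1d* (−0.21), *Kcnab1* (0.0648), *Kcnip2* (0.0435) and *Kcnj9* (−0.0829). Over all named genes, 589 values fell short of p under 0.01 and 94 newly passed when a mouse was left out, against 3905 on the same side. Of the 31 list medians 23 were positive, 13 under either scaling, 17 with the cortical score and 9 without mice high in it. TPM hold no depth, so counting error is unknown.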
